A study of Rattus norvegicus with 4 samples.

Results

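The proteasome genes of 4 rat mammary cancers are described here: the subunits of the particle, the caps that open it, its inhibitor and the chaperones that assemble it. They were chosen by name, as every gene whose symbol begins with Psm, a letter from a to g and a digit, and that has a probe set of its own on the array. The rule found 46 genes with 60 probe sets, of 14217 genes and 31099 probe sets in all. Of the 46, 44 encode parts, caps, the inhibitor or assembly chaperones. The other 2, Psmc3ip and Psme3ip1, match the rule only because they are named for binding to a subunit. Psmb6 and Psme3 had no probe set of their own, since theirs name further genes, and Psma8 and Psmb11 had none named here.

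The cancers were taken from female Sprague-Dawley rats, an outbred stock bought at 5 weeks of age. At 7 weeks the rats received 0.5 Gy of carbon ions to the whole body in 1 exposure (290 MeV/u, with a spread-out Bragg peak, the depth over which the dose is laid down, of 6 cm). From 9 weeks of age they ate AIN-76A feed with 23.5% corn oil. All 4 cancers belong to this 1 group and each was put on 1 array, so no second group of rats enters any comparison and no value measures an effect of the ions or the feed. The labels do not say whether the cancers came from separate rats. Differences are therefore described between individual cancers, called tumours 1 to 4, with no p-value.

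The proteasome degrades proteins that have been tagged with ubiquitin. Its core, the 20S particle, is a barrel of outer alpha rings and inner beta rings, and 3 kinds of beta subunit (Psmb5, Psmb6 and Psmb7) cut the protein chain. The 19S regulator binds the ends of the barrel, recognises ubiquitin chains and unfolds the substrate with a ring of ATPases. Interferon-gamma induces Psmb8, Psmb9 and Psmb10, which take the places of Psmb5, Psmb6 and Psmb7 in newly built particles. The result is the immunoproteasome, whose peptides suit presentation on class I molecules of the major histocompatibility complex (MHC). Interferon-gamma also induces Psme1 and Psme2, the subunits of the PA28 cap. Leukocytes carry immunoproteasomes constitutively, so in a tumour these transcripts can come from cancer cells, immune cells or both.

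The immunoproteasome genes are defined by regulation, and their upstream sequences are therefore shown beside that of Psmb5, the constitutive subunit that Psmb8 replaces. The 250 bases before the annotated start come from RefSeq (assembly GRCr8), which had an entry for 42 of the 46 genes. Capitals mark matches, on either strand, to a gamma-activated sequence (GAS, TTCNNNGAA), to the core of an interferon-stimulated response element (ISRE, GAAA and GAAA with any 2 bases between) or to the core of an antioxidant response element (ARE, TGANNNNGC).
Psmb8 (chr20:4657032-4657281, minus strand): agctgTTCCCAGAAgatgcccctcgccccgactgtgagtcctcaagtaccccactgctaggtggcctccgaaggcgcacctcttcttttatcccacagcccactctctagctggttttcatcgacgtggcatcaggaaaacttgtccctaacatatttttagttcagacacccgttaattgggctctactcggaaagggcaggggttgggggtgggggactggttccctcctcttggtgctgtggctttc
Psmb9 (chr20:4668750-4668999, plus strand): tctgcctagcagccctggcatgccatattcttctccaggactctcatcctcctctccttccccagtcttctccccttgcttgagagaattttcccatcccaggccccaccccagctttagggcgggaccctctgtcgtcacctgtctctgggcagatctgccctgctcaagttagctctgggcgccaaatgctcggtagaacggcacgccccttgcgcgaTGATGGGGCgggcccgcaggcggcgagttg
Psmb10 (chr19:50743293-50743542, minus strand): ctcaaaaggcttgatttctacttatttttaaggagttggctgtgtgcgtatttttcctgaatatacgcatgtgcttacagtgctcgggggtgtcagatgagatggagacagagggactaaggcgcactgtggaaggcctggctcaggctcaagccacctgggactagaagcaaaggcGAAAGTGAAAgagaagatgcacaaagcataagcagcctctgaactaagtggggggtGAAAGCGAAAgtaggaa
Psme2 (chr15:33052752-33053001, minus strand): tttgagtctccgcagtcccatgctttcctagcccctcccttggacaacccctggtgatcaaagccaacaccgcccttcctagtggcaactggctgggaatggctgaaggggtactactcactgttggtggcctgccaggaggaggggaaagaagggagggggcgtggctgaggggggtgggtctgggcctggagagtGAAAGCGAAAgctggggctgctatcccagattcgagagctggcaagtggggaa
Psmb5 (chr15:32047380-32047629, minus strand): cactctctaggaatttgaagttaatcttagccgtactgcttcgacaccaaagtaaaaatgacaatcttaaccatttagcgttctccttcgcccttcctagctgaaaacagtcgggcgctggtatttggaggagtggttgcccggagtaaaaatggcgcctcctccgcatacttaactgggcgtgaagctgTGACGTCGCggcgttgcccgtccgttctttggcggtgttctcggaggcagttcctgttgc

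Psmb10 held 2 ISRE matches, GAAAGTGAAA at bases -73 to -64 and GAAAGCGAAA at -17 to -8, counted from the annotated start. Psme2 held GAAAGCGAAA at -53 to -44. The capitals in Psmb8 are a GAS match at -245 to -237, and those in Psmb9 and Psmb5 are ARE matches at -30 to -22 and -60 to -52. Psme1 had none of these. An ISRE match was present in 2 of 5 immunoproteasome genes, in 3 of the 26 constitutive subunits with an entry and in 3.41% of all 33469 upstream regions of this length. A GAS match was present in 1 of 5, 3 of 26 and 7.67%, and an ARE match in 1 of 5, 11 of 26 and 34.7%. A match is a run of letters and does not show that a factor binds there.

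The genes are linked by position too. In the RefSeq table Psmb8, Tap1 and Psmb9 follow each other among the protein-coding genes of chromosome 20, with Tap2 next to Psmb8. Tap1 and Tap2 encode the transporter that carries proteasome products to class I molecules. Tap1 and Psmb9 are read in opposite directions from starts 457 bases apart, so their upstream windows share 44 bases. Upstream of Tap1 an ISRE match, TTTCGGTTTC, lay at bases -121 to -112 from the Tap1 start. It falls between the starts of Tap1 and Psmb9 but outside the window searched for Psmb9. The absence of an ISRE match for Psmb9 therefore holds for that window only. Tap2 held an ISRE match, GAAAGCGAAA, at -41 to -32 and an ARE match at -18 to -10. Psme1 and Psme2 lie on chromosome 15 with 1 gene, Emc9, between them.

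Levels are given as log2 of the deposited signal plus 16, and a gene is called expressed where its mean reached the median of all probe sets (7.81). Where a gene had more than 1 probe set, its value is that of the brightest. All 46 proteasome genes were expressed, among 9403 expressed genes in all. Epithelial markers were above that level in all tumours, with the adhesion molecule Epcam between 12.89 and 13.70 and the keratin Krt8 between 12.43 and 13.25. They mark epithelium in general and do not identify the organ. The mean signal after trimming 2% from each end was 500.1 on every array, and the arrays' medians lay between 201.8 and 221.9. Levels of different genes come from different probes and are not compared with each other.

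The proteasome genes differed little between the 4 cancers. Their median standard deviation (SD) was 0.16 log2 (46 genes, 4 tumours), against 0.21 over all expressed genes and 0.19 over the 5528 genes in the brighter 25%. A range of at least 1 log2, or 2-fold, from lowest to highest tumour was reached by 1 proteasome gene of 46, while 12.4% of expressed genes reached it. A range of at least 0.5 log2 was reached by 9 of 46, against 45.7%. Brighter genes had smaller ranges too. Of the 5528 in the brighter 25%, 496 (8.97%) reached 1 log2 and 2146 reached 0.5 log2. The most even subunit was Psmd1, a scaffold of the 19S base, whose SD of 0.03 was smaller than that of 99.4% of expressed genes. The least even was Psme4, which encodes the PA200 cap, with an SD of 0.50 that was smaller than that of 10.1%.

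**Figure D1:**
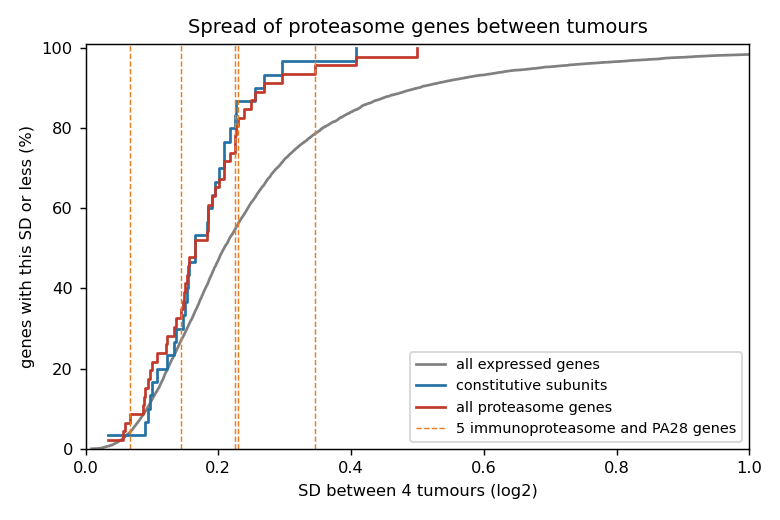
Cumulative share of genes (vertical axis, percent) by the standard deviation between the 4 tumours (horizontal axis, log2), for all 9403 expressed genes (grey), 46 proteasome genes (red) and 30 constitutive subunits (blue), with dashed lines at the 5 immunoproteasome and PA28 genes. The red and blue curves lie above the grey one over most of the axis, and the axis ends at 1, beyond which some grey genes lie.

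Tumour 1 was the lowest of the 4 for most of these genes. Of 46 proteasome genes 29 were lowest in tumour 1, against 36.2% of expressed genes, and 37 were lower there than the other 3 tumours averaged, against 55.0%. Bright genes leaned the same way, and 44 of the 46 are in the brighter 25%. Of the 5528 genes there, 41.6% were lowest in tumour 1, and 3338 were lower in it than the other 3 tumours averaged. In tumours 2, 3 and 4 the genes above that average were 42 (55.6%), 30 (54.4%) and 20 (47.5%), and in tumour 1 only 9 (45.0%). No proteasome gene was lowest in tumour 2 (17.6% of expressed genes were), 8 were lowest in tumour 3 (21.1%) and 9 in tumour 4 (25.1%). The highest tumour was tumour 2 for 22 genes (26.4%) tumour 3 for 17 (24.5%), tumour 1 for 4 (28.0%) and tumour 4 for 3 (21.1%). The shift of a gene in a tumour is its level there minus the average of the other 3 tumours. The median shift of the proteasome genes was -0.21, 0.14, 0.10 and -0.04 log2 in tumours 1 to 4. Over all expressed genes it was -0.04, 0.04, 0.03 and -0.02. Tumour 1 also had the lowest signal of all 8 listed luminal and general epithelial genes, with a median shift of -0.76, and the part of this in the proteasome result was not tested.

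**Figure D2:**
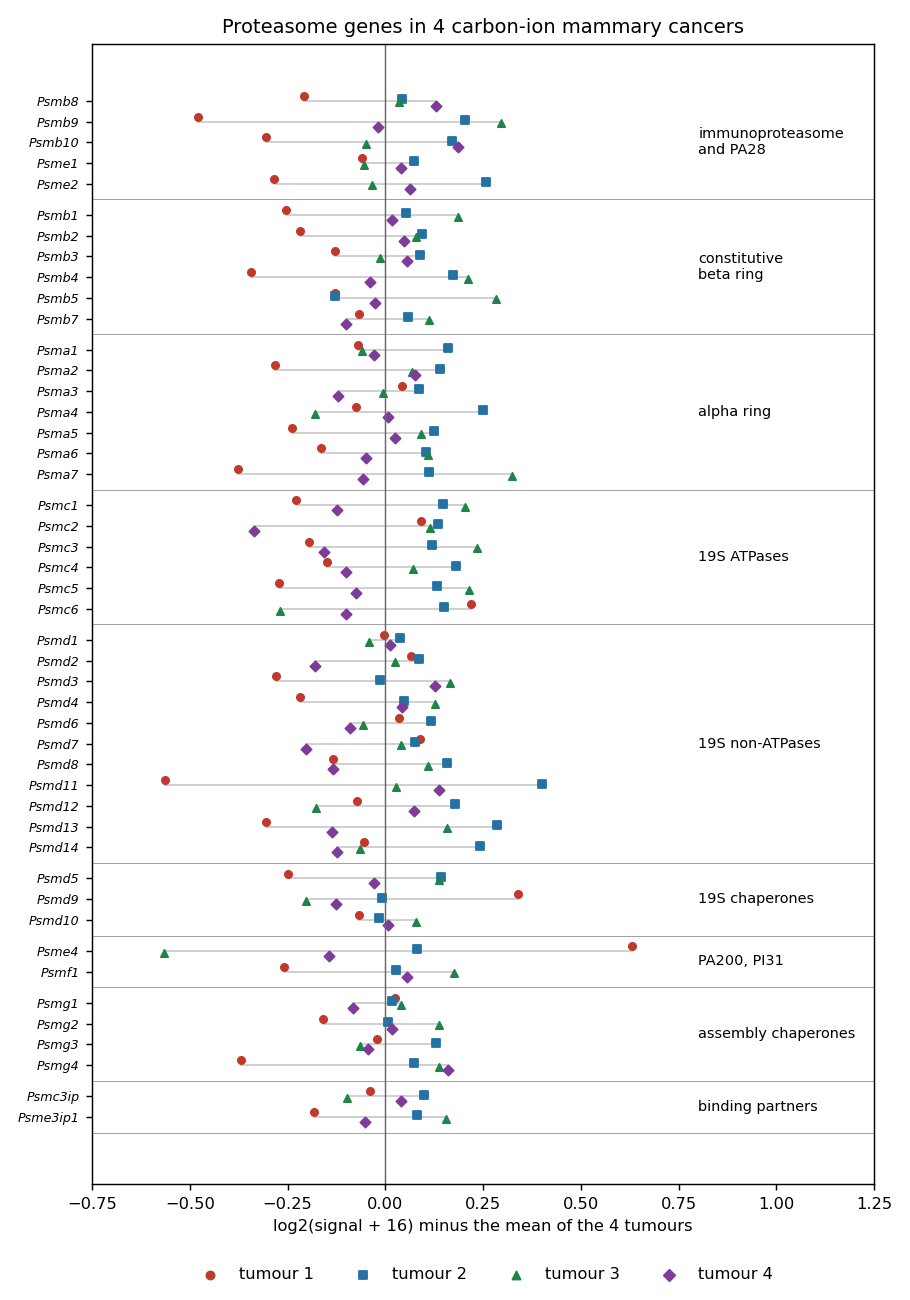
Level of each of the 46 proteasome genes in each tumour as the difference from that gene's mean over the 4 tumours (horizontal axis, log2), grouped by role, with 1 symbol per tumour and a grey line over the range. Tumour 1 (red circles) is leftmost for 29 genes and rightmost for 4, among them Psme4, and no gene has tumour 2 (blue squares) leftmost.

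The immunoproteasome genes were at their lowest in tumour 1 in 5 of 5 cases, against 36.2% of expressed genes. Of the 30 constitutive subunits 18 were lowest there too. Psmb9, the subunit that replaces Psmb6, measured 11.83, 12.52, 12.61 and 12.29 log2 in tumours 1 to 4. Tumour 1 stood below the other 3, and the range of 0.77 was the widest of the 5. Psmb10, which replaces Psmb7, measured 9.95, 10.42, 10.20 and 10.44, so tumours 2 and 4 were level at the top. Psmb8, which replaces Psmb5, was narrower, at 12.01, 12.26, 12.25 and 12.34, and its values outside tumour 1 spanned only 0.09.

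The PA28 genes did not share 1 width. Psme2, the beta subunit, measured 11.16, 11.71, 11.41 and 11.51 in tumours 1 to 4, with tumour 1 lowest and tumour 2 highest. Psme1, the alpha subunit, stayed between 12.46 and 12.59, a range of 0.13. Its SD of 0.07 was smaller than that of 95.8% of expressed genes. Tumours 1 and 3 were level for Psme1, and its shift in tumour 1 changed from -0.08 to 0.06 with quantile normalization and to 0.12 with its probe sets averaged.

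**Figure D3:**
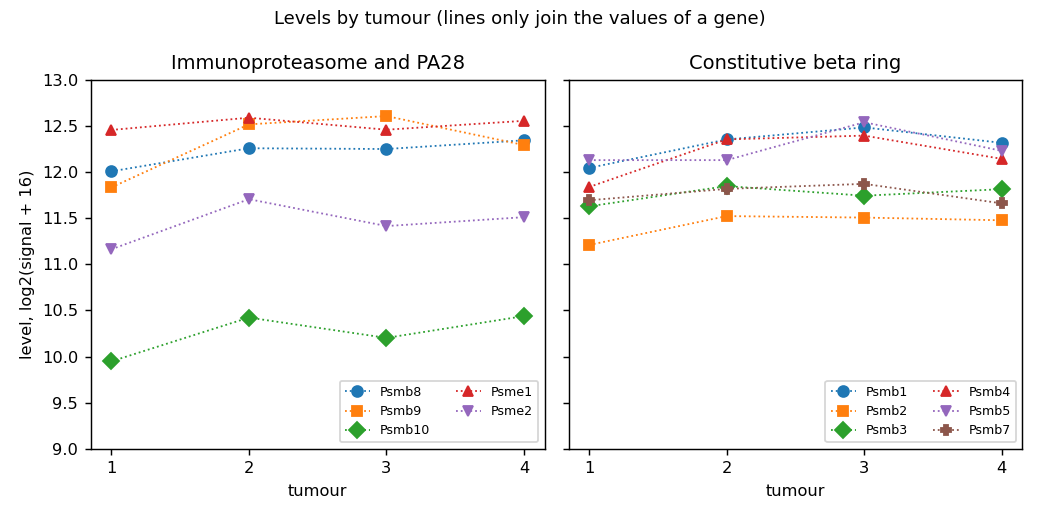
Level (vertical axis, log2 of signal plus 16) in tumours 1 to 4 (horizontal axis) of the 5 immunoproteasome and PA28 genes (left) and the 6 constitutive beta subunits with a probe set of their own (right); 1 array per tumour, so no error bars, and lines only join the values of a gene. All 5 genes on the left are lowest in tumour 1, by a narrow margin for Psme1, and 5 of the 6 on the right are, with Psmb5 level in tumours 1 and 2.

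The constitutive beta ring had the same lowest tumour. Psmb4, a structural subunit without cutting activity, measured 11.84, 12.35, 12.39 and 12.14 in tumours 1 to 4 and had the largest SD of this ring (0.25). Psmb5, with chymotrypsin-like activity, measured 12.13, 12.13, 12.54 and 12.23, so that tumour 3 stood above the others and tumours 1 and 2 were level. Psmb7, with trypsin-like activity, stayed between 11.66 and 11.87, and here tumour 4 was lowest. The evenest member was Psmb3, another structural subunit, with an SD of 0.10.

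The alpha ring, which gates entry to the barrel, was lowest in tumour 1 for 5 of 7 genes (36.2% of expressed genes) and highest in tumour 2 for 5 of 7 (26.4%). Psma7 varied most, at 11.38, 11.87, 12.08 and 11.70 in tumours 1 to 4. Psma3 was the evenest with values between 9.73 and 9.94, and tumour 4 was its lowest. Psma2 and Psmb2 in the beta ring had near-equal values in 3 tumours and a lower value in tumour 1. Psma2 was at 11.44 in tumour 1 and between 11.79 and 11.86 elsewhere, and Psmb2 at 11.21 and between 11.48 and 11.52 elsewhere.

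The ATPases of the 19S regulator were lower in tumour 4 as well. All 6 lay below the mean of the other tumours there, against 52.5% of expressed genes, with a median shift of -0.15. Psmc2 measured 12.09, 12.13, 12.11 and 11.66 in tumours 1 to 4, so tumour 4 alone was low. Psmc1, Psmc3, Psmc4 and Psmc5 were lowest in tumour 1, by shifts of -0.30, -0.26, -0.20 and -0.36. Psmc4 had the smallest SD of the ring, 0.15, and Psmc6 the largest, 0.23. Psmc6 was highest in tumour 1 (10.85) and lowest in tumour 3 (10.36), but its probe sets disagreed. The second also had tumour 1 highest at 10.72 but tumour 4 lowest at 10.11, and the third had tumour 1 lowest at 8.21 and tumour 3 highest at 8.81.

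Of the 11 other 19S subunits, 8 were highest in tumour 2 (26.4% of expressed genes) and 5 were lowest in tumour 4 (25.1%), Psmd8 only by less than 0.01 from tumour 1. Psmd11, a lid subunit, had the widest range of all constitutive subunits, 0.96, with 10.93, 11.89, 11.52 and 11.63 in tumours 1 to 4. Tumour 1 was lowest on its second probe set too, at 10.11 against 10.80 to 11.05, although the highest tumour there was tumour 4. Psmd13, also of the lid, measured 9.77, 10.36, 10.24 and 9.94, so tumours 1 and 4 were both low. Psmd14, the lid enzyme that removes ubiquitin from the substrate, stayed between 10.53 and 10.90, with tumour 2 highest on its 2 brighter probe sets and tumour 1 on the third. Psmd7, its inactive partner, was lowest in tumour 4 on both probe sets, at 10.52 and 10.23. Psmd1 ranged only from 9.62 to 9.70.

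The caps outside the immunoproteasome list and the inhibitor went different ways. Psme4 measured 11.79, 11.24, 10.59 and 11.02 in tumours 1 to 4 and was the only proteasome gene with a 2-fold range (1.20 log2). Tumour 1 was highest and tumour 3 lowest, whereas tumour 1 was the lowest for most subunits. The other 2 probe sets of Psme4 gave the same highest and lowest tumour, with 11.60 against 10.75 and 10.36 against 9.50. Without tumour 1 the range on the brightest probe set was 0.65, and on the second, which is the brightest over the remaining tumours, 0.49. Psmf1, which encodes the inhibitor PI31, measured 9.84, 10.13, 10.27 and 10.15 and so had tumour 1 lowest.

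**Figure D4:**
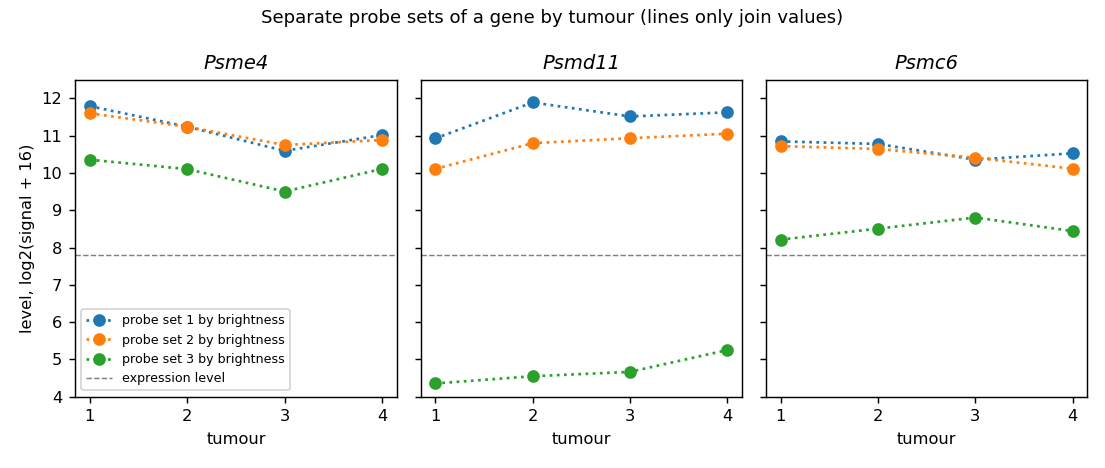
Level (vertical axis, log2 of signal plus 16) of each probe set of Psme4, Psmd11 and Psmc6 in tumours 1 to 4 (horizontal axis); the dashed line is the expression level of 7.81 and dotted lines only join values. All 3 probe sets of Psme4 are highest in tumour 1 and lowest in tumour 3, while the third probe set of Psmc6 is lowest where the others are highest.

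The chaperones that assemble the particle were mostly even. Psmg1, which with Psmg2 starts the alpha ring, had an SD of 0.06, and Psmg3 one of 0.09. Psmg4, the partner of Psmg3, was wider, with 10.70 in tumour 1 and 11.14 to 11.23 in the others. Among the chaperones of the 19S base, Psmd10 was even (9.90 to 10.04), Psmd5 was lowest in tumour 1 at 10.29, and Psmd9 was highest in tumour 1 at 9.16 against 8.62 to 8.81. The second probe set of Psmd9, whose mean of 7.34 was under the expression level, had tumour 1 lowest instead. Psmc3ip and Psme3ip1, which are not part of the particle, had SDs of 0.09 and 0.15.

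The comparison of immunoproteasome with constitutive subunits was made on shifts, since levels of different probes cannot be set against each other. The constitutive subunits are the 30 genes of the alpha ring, the constitutive beta ring and the 19S regulator without its chaperones. In tumour 1 the median shift was -0.38 for the 5 immunoproteasome genes and -0.19 for the 30 constitutive genes, and 21 of the 30 lay within the span of the 5 (-0.64 to -0.08). In tumour 2 the medians were 0.23 and 0.16, with 25 of 30 within the span. Both sets were thus low in tumour 1 and high in tumour 2, and most constitutive genes could not be told from the 5 by their shift.

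In tumours 3 and 4 the medians had opposite signs. In tumour 3 the immunoproteasome median was -0.05 and the constitutive median 0.11, with 23 of 30 constitutive genes within the span of the 5. The immunoproteasome median there lay close to 0 and turned positive in 4 of 11 alternatives, to 0.04 with arrays shifted to a common median, 0.05 with means over the genes, 0.07 without tumour 2 and 0.02 without tumour 4. Psmb8 and Psmb9 had positive shifts in tumour 3, 0.05 and 0.39, and the other 3 genes negative ones. In tumour 4 the medians were 0.08 and -0.07, and 19 of 30 constitutive genes lay below the lowest of the 5, Psmb9, at -0.03. The difference between the sets (immunoproteasome minus constitutive) was -0.19, 0.06, -0.16 and 0.15 in tumours 1 to 4. With 1 array per tumour no error can be put on these differences. Without tumour 1 the difference in tumour 2 was -0.01.

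Ratios were formed for the pairs of subunits that replace each other. They compare RNA signals and do not measure which subunits were built into the particle. The log2 ratio of Psmb10 to Psmb7 shifted by -0.32, 0.15, -0.22 and 0.38 in tumours 1 to 4, with an SD of 0.24, so tumour 4 was highest and tumour 1 lowest. The ratio of Psmb8 to Psmb5 shifted by -0.11, 0.23, -0.33 and 0.21, with tumours 2 and 4 high and tumour 3 low. Both ratios thus had positive shifts in tumours 2 and 4 and negative ones in tumours 1 and 3. For Psmb8 over Psmb5 the values in tumours 2 and 3 turned to -0.54 and 0.35 when the probe sets of Psmb5 were averaged, 2 of which lay under the expression level. The third pair, Psmb9 with Psmb6, could not be formed.

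Genes that act with the proteasome but lie outside the name rule spread little too. Of 24 such genes, a list drawn up with earlier results of these data known, 18 had an expressed probe set. A 2-fold range was reached by 0 of 18, against 12.4% of expressed genes, a share too small for so short a list to show a difference. Nfe2l1, the transcription factor that raises proteasome genes when the particle is inhibited, measured 9.95, 10.29, 10.27 and 10.49 in tumours 1 to 4. It was lowest in tumour 1, as most subunits were, but highest in tumour 4. Pomp, the maturation protein of the beta ring, stayed between 12.43 and 12.53. Uba1, the main ubiquitin-activating enzyme, had the largest shift of the list in tumour 1, -0.44. The list as a whole had median shifts of -0.09, 0.09, 0.05 and -0.12, and shifts were negative for 11 of 18 genes in tumour 1 (55.0% of expressed genes) and for 12 of 18 in tumour 4 (52.5%), close to the shares over all expressed genes.

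Genes of class I peptide loading were low in tumour 1 together with the immunoproteasome. All 8 expressed genes of the list of 10 were below the mean of the others there (55.0% of expressed genes), by a median of -0.19. In 6 of 8 tumour 1 was lowest (36.2%). Tap2 measured 9.66, 10.37, 10.73 and 10.06 in tumours 1 to 4, the order of Psmb9. Tap1, which lies between Psmb8 and Psmb9 and shares an upstream region with Psmb9, stayed between 10.02 and 10.29 with tumour 3 lowest. B2m, the light chain of class I, was lowest in tumour 1 (13.41) and highest in tumour 3 (13.82). Nlrc5, which activates class I genes, had a mean under the expression level, and its levels of 8.17 in tumour 1 and 8.12 in tumour 4 exceeded the others, 7.26 and 7.40.

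By the medians of their lists, interferon genes were not low in tumour 1 as the immunoproteasome genes were. In the interferon-gamma list (14 of 20 expressed) the median shift was 0.24, -0.25, -0.15 and 0.34 in tumours 1 to 4. Single genes differed. Of the 14, 4 were lowest in tumour 1 (36.2% of expressed genes), namely Jak1, Jak2, Cxcl9 and Cxcl11, and 7 were highest there (28.0%). Irf1, a factor that binds ISRE sequences, was at 11.19 in tumour 4 and between 10.51 and 10.67 elsewhere. Ubd, a ubiquitin-like tag that sends proteins to the proteasome, was at 11.44 in tumour 4 and between 6.89 and 7.64 elsewhere, the latter under the expression level. Cxcl9, a chemokine induced by interferon-gamma, had the largest shift in tumour 1 among the expressed genes of this list, -1.04. In the type I interferon list 10 of 13 expressed genes were highest in tumour 1 (28.0% of all expressed genes), with a median shift of 0.88. Mx1 was at 11.76 there against 8.79 to 9.68. Ifit1 was the 1 gene of the 13 that was lowest there, at 7.62. Tumour 1, highest for most genes of the type I list, was lowest for each immunoproteasome gene, though level with tumour 3 for Psme1.

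Leukocyte markers were opposite to the immunoproteasome genes in tumour 1. All 6 pan-leukocyte genes had positive shifts there, with a median of 0.84, and so did all 10 macrophage genes, with a median of 1.18. Of all expressed genes 45.0% had a positive shift in tumour 1. The summed signal of the macrophage list was 19883, 11211, 6634 and 11133 in tumours 1 to 4, and that of the pan-leukocyte list 6594, 5666, 3301 and 4217. Ptprc, the pan-leukocyte phosphatase CD45, was at 9.71, 9.14, 7.89 and 8.82. In tumour 3, lowest for these markers, the shift was positive for Psmb8 (0.05) and Psmb9 (0.39) and negative for Psmb10 (-0.07), Psme1 (-0.07) and Psme2 (-0.05). Cd53 and C1qb had the largest shifts of their lists in tumour 1, 1.29 and 1.49. In these bulk samples fewer cells of a type and less RNA per cell cannot be told apart.

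Other lymphoid and stromal lists, each taken as a whole, gave no common order with the proteasome genes. Of 12 T and natural killer cell genes 4 were expressed, with a median shift of -0.65 in tumour 3 and between 0.20 and 0.28 in the others. In tumour 1 the shift was positive for 3 of the 4 (45.0% of expressed genes). Cd4, which rat macrophages carry as well, had the largest at 0.81. The remaining gene, Gzma, was lowest in tumour 1 with a shift of -0.77. Under the expression level, Nkg7, Gzmb, Prf1 and Klrd1 were lowest in tumour 1 too, and Cd3e, Cd3d, Cd2 and Cd8a in tumour 3. Of the B and plasma cell list only Jchain, the joining chain of secreted antibodies, was expressed. Its shift was 2.67 in tumour 1 and 2.41 in tumour 4. Shifts of the fibroblast list were positive in tumour 1 for 6 of 6 genes (45.0% of expressed genes), with the growth factor receptor Pdgfra at 2.13. In tumour 4 they were negative for 6 of 6 (52.5%). The basal epithelial list was split in tumour 1, with a median shift of 0.43. There 4 genes had positive shifts, led by the keratin Krt14 (2.05), and 2 negative ones, Acta2 (-0.51) and Myh11 (-0.55). Endothelial genes were led in tumour 1 by the receptor Kdr (0.53). Among luminal genes the tight-junction gene Cldn3 had the largest shift, -2.58. No adipocyte gene of 5 was expressed. The part of these cell types in the proteasome values was not tested.

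**Figure D5:**
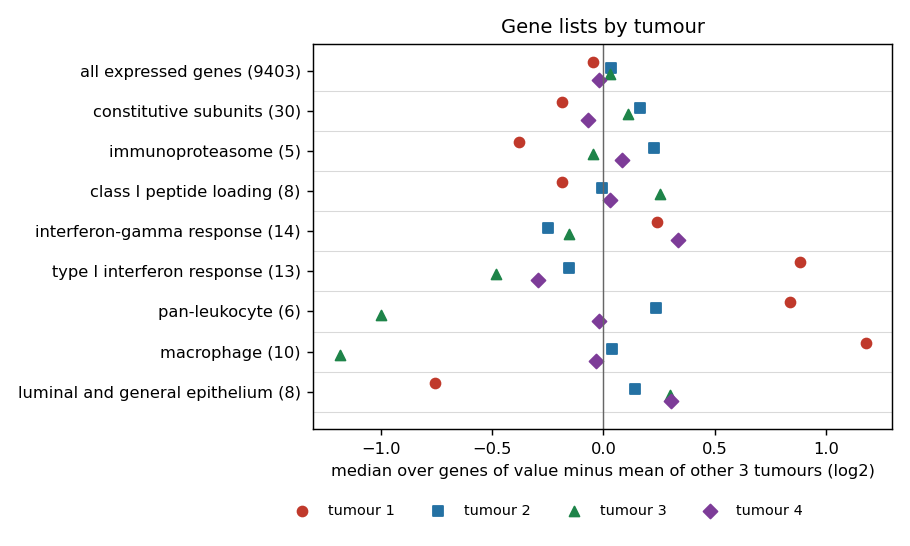
Median shift of each gene list in each tumour (horizontal axis, log2, value in a tumour minus the mean of the other 3), with the number of expressed genes in brackets and 1 symbol per tumour. In tumour 1 (red circles) the constitutive subunits lie at -0.19, the immunoproteasome at -0.38 and the epithelium at -0.76, while the macrophage list lies at 1.18.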

How the data were processed

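Total RNA of the 4 cancers was labelled with biotin from 8 µg, with an oligo-dT primer and in vitro transcription, per the labels' protocols. The authors deposited linear intensity values for 31099 probe sets. The array software and the scaling step: not given in the sources used here. No arrays were identical in all values. Values were used as deposited and transformed to log2(value + 16). Probe sets were named from the platform annotation, those naming several genes were left out, and the brightest probe set of a gene was used. Genes with a mean of at least 7.81 log2 (the median of all probe-set means) are called expressed. All 46 proteasome genes were found by gene ID in the RefSeq table of assembly GRCr8, with 0 symbols changed. The number of arrays, 1 per tumour, limits the precision.

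No test was possible within 1 group without technical replicates. Genes are described by SD, range, and shift (value in a tumour minus the mean of the other 3), beside the same over all expressed genes. The members, gene lists and rules were chosen with earlier results of these data known. The text names the immunoproteasome genes, Psmb5 and Psmb7, genes with a 2-fold range, the members of largest and smallest SD in each role, and 10 anchor genes outside the rule. It also names the expressed gene of each other list with the largest shift in tumour 1. Further members are named after their values were seen, to show disagreement or a tumour that stands apart. The calculation was tested on simulated data. Python 3.11.15 with numpy 2.4.6 and pandas 2.3.3 was used. Alternatives were the pseudocount, array scaling, probe set choice, expression filter, averaging, and leaving out each tumour.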

Additional observations from a re-analysis of the deposited data

Results flagged for a closer look

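In 5 of the 46 proteasome genes 1 tumour stood apart from the other 3 by a gap that is large for the gene's whole range. The gap between the lowest tumour and the next, as a share of the range, was 0.833 for Psma2, 0.855 for Psmb2 and 0.835 for Psmg4, each lowest in tumour 1. It was 0.907 for Psmc2 and 0.838 for Psmd7, each lowest in tumour 4. All 5 shares exceed Dixon's critical value for 4 samples, which chance alone exceeds in about 1 of 20 groups. The same limit was passed by 5.63% of the 9403 expressed genes and by 10.9% of the 46. On the second probe set of Psmd7 tumour 4 was also lowest, but the gap was only 0.213 of the range. The ranges themselves were small, at 0.42 (Psma2), 0.31 (Psmb2), 0.53 (Psmg4), 0.47 (Psmc2) and 0.29 log2 (Psmd7). The cause of these gaps was not tested.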

How the results depend on the processing

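The low position of tumour 1 kept its direction under every alternative that kept tumour 1: 27 to 34 proteasome genes were lowest there (29 as reported) and 33 to 40 were below the mean of the others. With the arrays shifted to a common median, 44.0% of all expressed genes were lowest in tumour 1 as well. The immunoproteasome genes lowest in tumour 1, 5 as reported, numbered 4 with quantile normalization and 4 with probe sets averaged. The median SD of the proteasome genes lay between 0.11 (without tumour 1) and 0.21 (arrays shifted to a common median). Over all expressed genes it was 0.167 and 0.229 under these settings, so with shifted arrays the 2 were close. Proteasome genes with a 2-fold range numbered 2 with arrays shifted to a common median, where Psmd11 joined Psme4, 0 with probe sets averaged, and 0 to 1 when 1 tumour was left out (0 without tumour 1 and without tumour 3). The difference between immunoproteasome and constitutive shifts kept its sign in all 11 alternatives in tumours 1, 3 and 4 and in 10 of 11 in tumour 2, where it was -0.01 without tumour 1. Its values ran from -0.25 to -0.10 in tumour 1, from -0.19 to -0.04 in tumour 3 and from 0.14 to 0.25 in tumour 4. The immunoproteasome shift in tumour 3, -0.05 as reported, kept its sign in 7 of 11. The Psmb8 over Psmb5 ratio reversed with probe sets averaged, to -0.54 in tumour 2 and 0.35 in tumour 3, and the shift of Psme1 in tumour 1 reversed to 0.0598 with quantile normalization and 0.12 with probe sets averaged. The reversal of the ratio follows from including 2 dim probe sets of Psmb5. That of Psme1 with probe sets averaged follows from including its dim second probe set, whose shift in tumour 1 was 0.31. The cause of the other changes of sign was not tested. No paired analysis was possible because there is only 1 group. The alternatives without Psmc3ip and Psme3ip1 and the counts of genes lowest or below the others in tumour 1 were added after the data had been seen.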

Other observations

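Of the 9 proteasome genes with more than 1 probe set, 5 had at least 2 that were expressed. In 3 of the 5 every expressed probe set had the same lowest tumour, and in 2 every one had the same highest tumour. The genes with dim extra probe sets show how little those can say. The second probe set of Psme1 lay between 6.61 and 7.56 with tumour 3 lowest and tumour 4 highest, whereas the bright one had tumours 1 and 2 in those places. The third of Psmd11 lay between 4.36 and 5.25, and like both brighter ones was lowest in tumour 1.

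General promoter letters were frequent upstream of proteasome genes. A GC box (GGGCGG, either strand) was present in the 250 bases before the start in 29 of the 42 proteasome genes with an entry, or 69.0%, against 30.5% of all upstream regions. A CCAAT box (CCAAT, either strand) was present in 21 of 42, or 50.0%, against 34.0%. These are counts of letters, and the comparison with all regions, expressed here or not, carries no test.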
